A study of Homo sapiens with 12 samples.

Results

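The 10 genes described here are members of the NF-κB system, listed by symbol: the subunit genes NFKB1, NFKB2, RELA and RELB, the inhibitor genes NFKBIA and TNFAIP3, and the target genes BIRC3, TRAF1, TNFAIP2 and ICAM1. Each symbol matched a row of the deposited gene counts, so that 10 of 26334 genes were followed, and all 10 were among the 15352 genes with enough reads to be tested. The RNA came from A549, a human lung adenocarcinoma cell line. Cells carried a lentiviral shRNA, either a non-target sequence (control cells) or one against RNF113A (RNF113A-depleted cells), and were then left untreated or given Cisplatin at 25 µg/ml for 20 h. This dose is in the unit of the labels, while the study's methods give 25 µM for cell death assays on A549 cells. All 4 groups were selected with puromycin at 1 µg/ml for 4 days, and each had 3 biological replicates, giving 12 libraries. RNF113A is a zinc finger and RING protein with E3 ligase activity that belongs to the spliceosome, and Cisplatin is a platinum compound that crosslinks DNA. Cells were puromycin-selected pools, not clones, and the labels name no shRNA sequence.

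NF-κB is a family of transcription factors that work as dimers. In resting cells IκBα, the product of NFKBIA, holds RELA-containing dimers in the cytoplasm. Signals from cytokine receptors or from DNA damage lead to its degradation by way of the IκB kinases, and the freed dimers move to the nucleus. NFKB2 and RELB form the dimer of the alternative pathway, whose precursor p100 is cut to p52. Several members are themselves known targets of NF-κB, among them NFKBIA and TNFAIP3, which close negative feedback loops.

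The libraries held 33859097 to 56071514 read pairs, of which 26220526 to 45721152 were assigned to genes. The RNF113A transcript stood at 19.5 to 20.3 CPM (counts scaled to 1000000 reads per library after TMM normalization) in untreated control cells and at 15.3 to 16.8 in untreated depleted cells, a log2 difference of -0.31 ± 0.09 (SE, n = 3 per group, adjusted p = 0.0247). With Cisplatin it stood at 27.7 to 31.5 and 24.3 to 29.9 CPM, and the difference of -0.14 ± 0.09 did not pass the test (adjusted p = 0.23). Both control libraries numbered 2 stood apart from the other libraries of their groups. Chi-square per gene against those was 63.5 to 96, compared with 4.06 to 18.1 between all other replicates. The epithelial keratins KRT8 and KRT18 were at 1936 and 1402 CPM or more in every library. The other epithelial markers were lower, with CDH1 at 32.1 to 197, EPCAM at 3.66 to 97.6 and KRT19 at 0.674 to 5.32 CPM. The 5 epithelial markers summed to 7174 to 12930 CPM in control cells, 3400 to 5165 after Cisplatin, 12850 to 14110 in depleted cells and 5306 to 5730 after Cisplatin, and their part in the results was not tested. Leukocyte markers, which matter here because leukocytes are rich in NF-κB targets, summed to 1.24 to 4.54 CPM over 5 genes, with PTPRC at 0 in 8 and CD3E at 0 in 11 of 12 libraries. Among these markers CD14 was above 0 in all 12 libraries, at 1.14 to 4.36 CPM, and CSF1R was at 0 in 2. The 3 endothelial markers summed to at most 0.788 CPM and the 3 fibroblast markers to 6.03 to 35.8 CPM.

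NF-κB dimers bind a short DNA sequence, the κB consensus motif. It was searched on both strands in RefSeq promoters of GRCh38.p14, from 250 bases before to 50 bases after each start. Of the 10 genes 9 had an entry, and 5 of these held a match, namely NFKB1, NFKB2, NFKBIA, TNFAIP3 and BIRC3. Of all genes searched, 7.09% held a match (5.91% of promoters). RELA, TRAF1, TNFAIP2 and ICAM1 held no match in this window, and RELB had no entry. Only full matches to the 10-base motif GGGRNWYYCC were counted (R is A or G, W is A or T, Y is C or T, N is any base). Sites that depart from it were not sought, so a gene without a match may still hold one. A stretch of 100 bases from 1 matching promoter of each of these genes is shown, since these genes are known targets of NF-κB. Letters in capitals are the matches, on either strand, and in NFKB2 the first run of capitals holds overlapping matches. The stretches lie at chr4:102501259-102501358 (plus strand), chr10:102394440-102394539 (plus), chr14:35404776-35404875 (minus), chr6:137867153-137867252 (plus) and chr11:102317272-102317371 (plus), in the order printed.
NFKB1: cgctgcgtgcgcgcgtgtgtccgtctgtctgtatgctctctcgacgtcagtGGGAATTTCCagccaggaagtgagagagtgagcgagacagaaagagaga
NFKB2: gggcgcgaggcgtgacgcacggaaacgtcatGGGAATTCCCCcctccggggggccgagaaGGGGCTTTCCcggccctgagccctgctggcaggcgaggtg
NFKBIA: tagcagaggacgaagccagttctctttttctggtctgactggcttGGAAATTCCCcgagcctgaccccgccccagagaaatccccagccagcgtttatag
TNFAIP3: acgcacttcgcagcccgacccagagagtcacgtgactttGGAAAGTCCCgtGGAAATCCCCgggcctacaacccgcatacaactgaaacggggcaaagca
BIRC3: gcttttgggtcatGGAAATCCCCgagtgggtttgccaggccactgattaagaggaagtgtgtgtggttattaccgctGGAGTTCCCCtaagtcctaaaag
In the promoters shown, the nearest match began 49 bases before the start in NFKB1, 78 in NFKB2, 81 in NFKBIA, 55 in TNFAIP3 and 135 in BIRC3. Another NFKB2 promoter (chr10:102395455-102395754), not shown, held matches 176 and 21 bases before its start. These matches describe the sequence and were not tested for binding.

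Cisplatin raised 9 of the 10 transcripts, in control cells as in RNF113A-depleted cells. In each background 6 were called, meaning an adjusted p under 0.05 and at least a 2-fold change, and they were NFKB2, RELB, TNFAIP3, BIRC3, TRAF1 and ICAM1 in both. NFKB1, RELA and NFKBIA rose by less than 2-fold, and TNFAIP2 did not pass the test. Of all genes tested, 9.16% were called higher with Cisplatin in control cells and 11.6% in depleted cells. The shares that passed on the adjusted p alone and were higher were 28.0% and 32.4%. As an additive term over both backgrounds, Cisplatin gave 6 members called higher, against 10.3% of all genes. The median log2 change of the 10 genes was 2.09 in control and 1.65 in depleted cells, where the median over all genes was -0.01 and 0.06. All comparisons reuse the same 12 libraries, so that the Cisplatin and the depletion effects share samples and are not independent of each other. In bulk RNA, a change in every cell and a change in the share of cells with a transcript cannot be told apart.

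**Figure D1:**
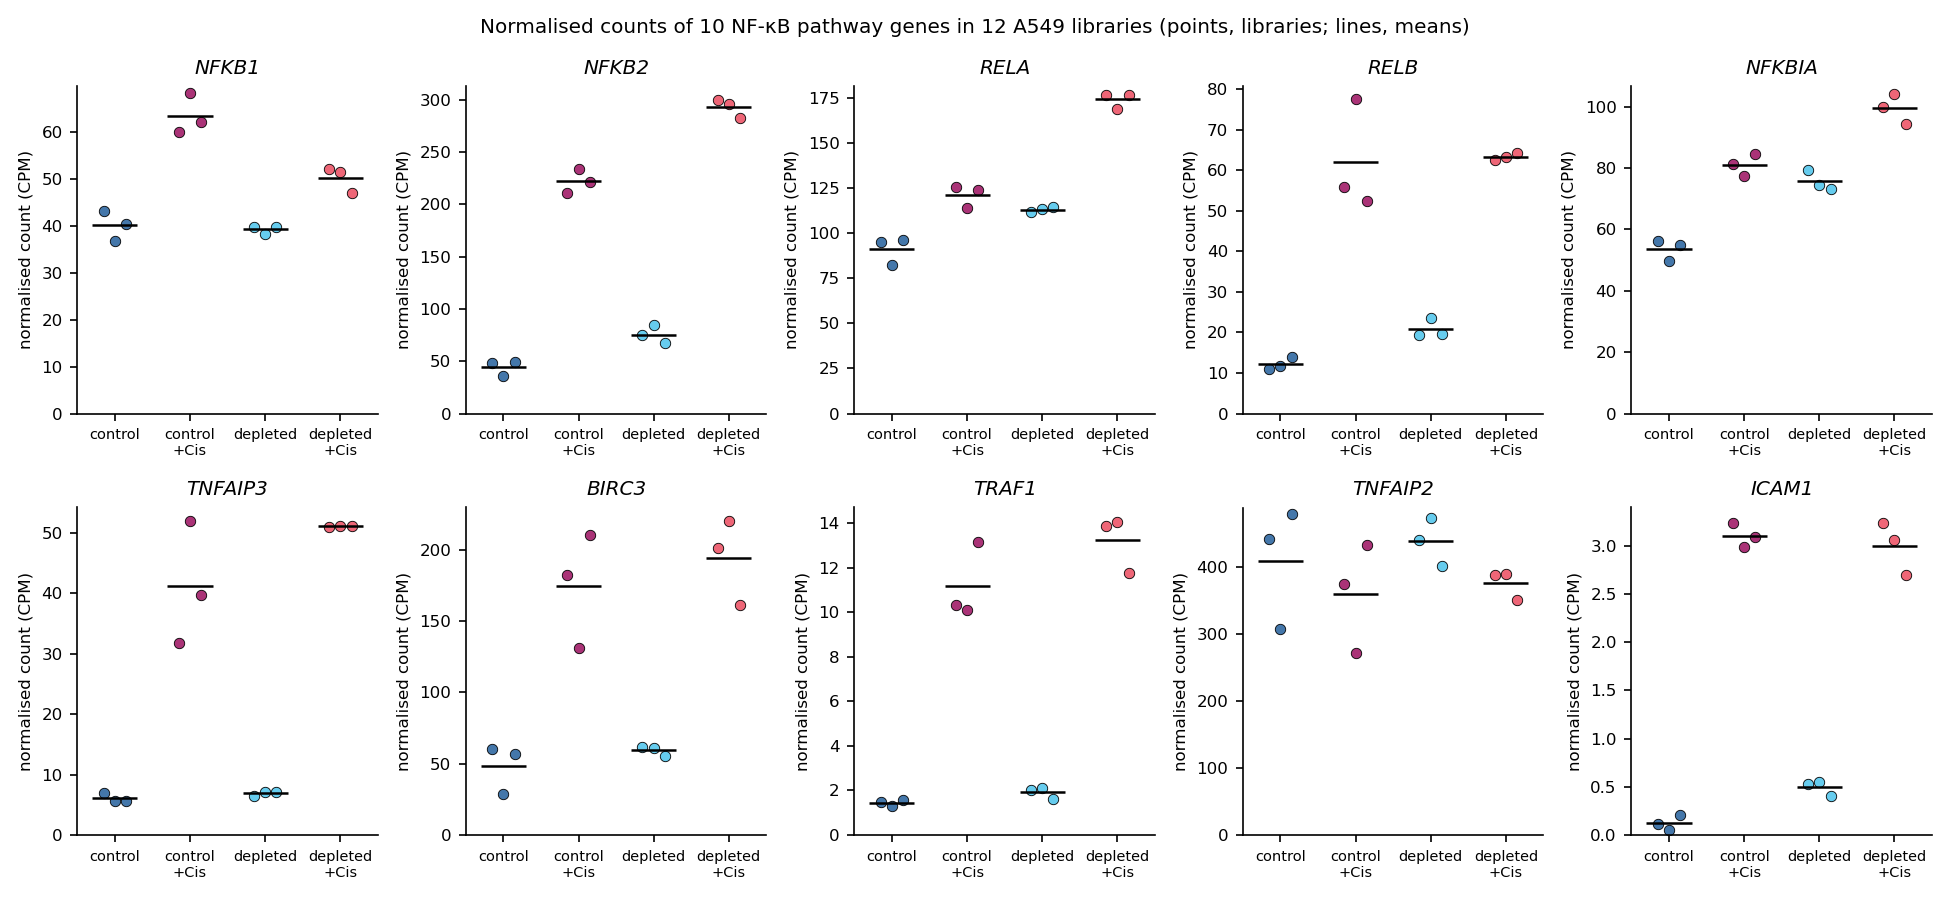
Normalized level of each of the 10 transcripts in every library (CPM, linear axes from 0), by group, with lines at the group means. In 9 of the 10 panels the 3 Cisplatin libraries of each background lie above the 3 untreated ones, and in the TNFAIP2 panel they do not.

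Among the subunit genes, those of the alternative pathway had the larger folds with Cisplatin. NFKB2 (chr10:104153867-104162281, plus strand, hg19), which encodes p100 and p52, had 47.9, 35.4 and 49.6 CPM in the control replicates 1 to 3 and 211, 234 and 222 CPM after Cisplatin. Depleted cells had 74.6, 84.3 and 67.1 CPM untreated and 300, 296 and 283 CPM after Cisplatin. No groups overlapped, and the depleted libraries were above the control ones under both treatments. The Cisplatin change was 5.02-fold in control cells (log2 2.33 ± 0.12, adjusted p = 2.16e-08) and 3.89-fold in depleted cells (1.96 ± 0.12, adjusted p = 7.59e-08). RELB (chr19:45504688-45541452, plus strand), the partner of p52, had 11.1, 11.7 and 13.9 CPM in control cells and 56, 77.5 and 52.3 CPM after Cisplatin. In depleted cells the values were 19.4, 23.6 and 19.6 CPM and 62.5, 63.3 and 64.3 CPM. Control replicate 2 was the highest of the Cisplatin libraries, and the Cisplatin groups overlapped between the backgrounds while the untreated ones did not. RELB rose 5.06-fold in control cells (2.34 ± 0.15, adjusted p = 9.99e-08) and 3.04-fold in depleted cells (1.60 ± 0.15, adjusted p = 1.63e-06).

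The genes of the canonical dimer rose by less than 2-fold. NFKB1 (chr4:103422486-103538459, plus strand), which encodes p105 and p50, went from 43.2, 36.8 and 40.4 to 60.1, 68.2 and 62.2 CPM in control cells. In depleted cells it went from 39.8, 38.4 and 39.9 to 52.1, 51.4 and 46.9 CPM. The groups did not overlap within either background, with rises of 1.58-fold (0.66 ± 0.08, adjusted p = 2.50e-05) and 1.28-fold (0.35 ± 0.08, adjusted p = 0.00258). RELA (chr11:65421067-65430565, minus strand), which encodes p65, the subunit with the main transactivation domain of the canonical dimer, went from 95.2, 82.5 and 96.6 to 126, 114 and 124 CPM in control cells. In depleted cells it went from 112, 113 and 114 to 177, 169 and 177 CPM. Its rises were 1.33-fold (0.41 ± 0.07, adjusted p = 0.000449) and 1.54-fold (0.62 ± 0.07, adjusted p = 1.33e-05). RELA and TNFAIP3 were the members with a larger log2 change in depleted than in control cells, by 0.21 ± 0.10 and 0.13 ± 0.21, and neither difference passed the test (adjusted p = 0.25 and 0.77).

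The inhibitor genes differed in size of response. NFKBIA (chr14:35870717-35873955, minus strand) went from 56.2, 49.6 and 54.9 to 81.3, 77.2 and 84.5 CPM in control cells and from 79.3, 74.5 and 73.1 to 99.8, 104 and 94.4 CPM in depleted cells. The groups did not overlap in either background, and the rises were 1.51-fold (0.60 ± 0.07, adjusted p = 2.38e-05) and 1.31-fold (0.39 ± 0.07, adjusted p = 0.000503). TNFAIP3 (chr6:138188351-138204449, plus strand), which encodes the ubiquitin-editing enzyme A20, had 6.88, 5.71 and 5.67 CPM in control cells and 31.9, 51.9 and 39.8 CPM after Cisplatin. The depleted libraries had 6.46, 7.11 and 7.07 CPM and 51, 51.2 and 51.1 CPM. The rise was 6.77-fold in control cells (2.76 ± 0.16, adjusted p = 3.70e-08) and 7.43-fold in depleted cells (2.89 ± 0.16, adjusted p = 2.71e-08).

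BIRC3 and TRAF1 act downstream of TNF receptors and favour survival. BIRC3 (chr11:102188215-102210134, plus strand), which encodes the ubiquitin ligase cIAP2, had 60.1, 28.9 and 56.4 CPM in control cells and 182, 131 and 210 CPM after Cisplatin. In depleted cells it had 61.8, 61 and 55.6 CPM and 201, 220 and 161 CPM. Control replicate 2 was the lowest of its group under both treatments, and the untreated and Cisplatin groups did not overlap in either background. BIRC3 rose by 260.2% (1.85 ± 0.24, adjusted p = 4.40e-05) and by 226.3% (1.71 ± 0.24, adjusted p = 6.72e-05). TRAF1 (chr9:123664671-123691451, minus strand), which encodes an adaptor that binds TRAF2 and the cIAPs, was scarce, with 1.47, 1.30 and 1.56 CPM in control cells and 10.3, 10.1 and 13.1 CPM after Cisplatin. In depleted cells it had 2.04, 2.10 and 1.60 CPM and 13.9, 14.1 and 11.8 CPM. These were rises of 7.74-fold (2.95 ± 0.16, adjusted p = 3.05e-08) and 6.89-fold (2.78 ± 0.16, adjusted p = 4.25e-08).

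The other targets were TNFAIP2, which did not rise, and ICAM1, which had the largest fold change of the 10 in control cells. TNFAIP2 (chr14:103589779-103603776, plus strand), which encodes a protein linked to membrane nanotubes, had 442, 309 and 479 CPM in control cells and 375, 272 and 434 CPM after Cisplatin. In the depleted libraries it had 441, 474 and 402 CPM and 388, 390 and 351 CPM. In control cells each Cisplatin value was below the untreated value with the same number, yet the groups overlapped, while the depleted groups did not. Neither change passed the test (-0.19 ± 0.17, adjusted p = 0.38, and -0.22 ± 0.17, adjusted p = 0.29). In the 6 control libraries with their replicate number as a block, the same change of -0.19 had an adjusted p of 0.0437. In depleted cells the adjusted p was 0.0165 without both control libraries numbered 2, which enter the estimate of the spread, and 0.00507 when the 6 depleted libraries were fitted alone. ICAM1 (chr19:10381511-10397291, plus strand), which encodes an adhesion molecule for leukocytes, was near the limit of detection in untreated control cells, with 4, 2 and 8 reads. It had 123, 124 and 145 reads after Cisplatin, and in depleted cells 20, 21 and 13 reads untreated and 100, 99 and 72 reads after Cisplatin. In CPM these were 0.111, 0.051 and 0.212, then 3.24, 2.98 and 3.09, and in depleted cells 0.529, 0.551 and 0.400, then 3.23, 3.06 and 2.69 CPM. ICAM1 rose 24.4-fold in control cells (4.61 ± 0.32, adjusted p = 1.96e-07) and 6.01-fold in depleted cells (2.59 ± 0.27, adjusted p = 4.79e-06). The Cisplatin levels overlapped between the backgrounds, and the untreated levels did not.

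**Figure D2:**
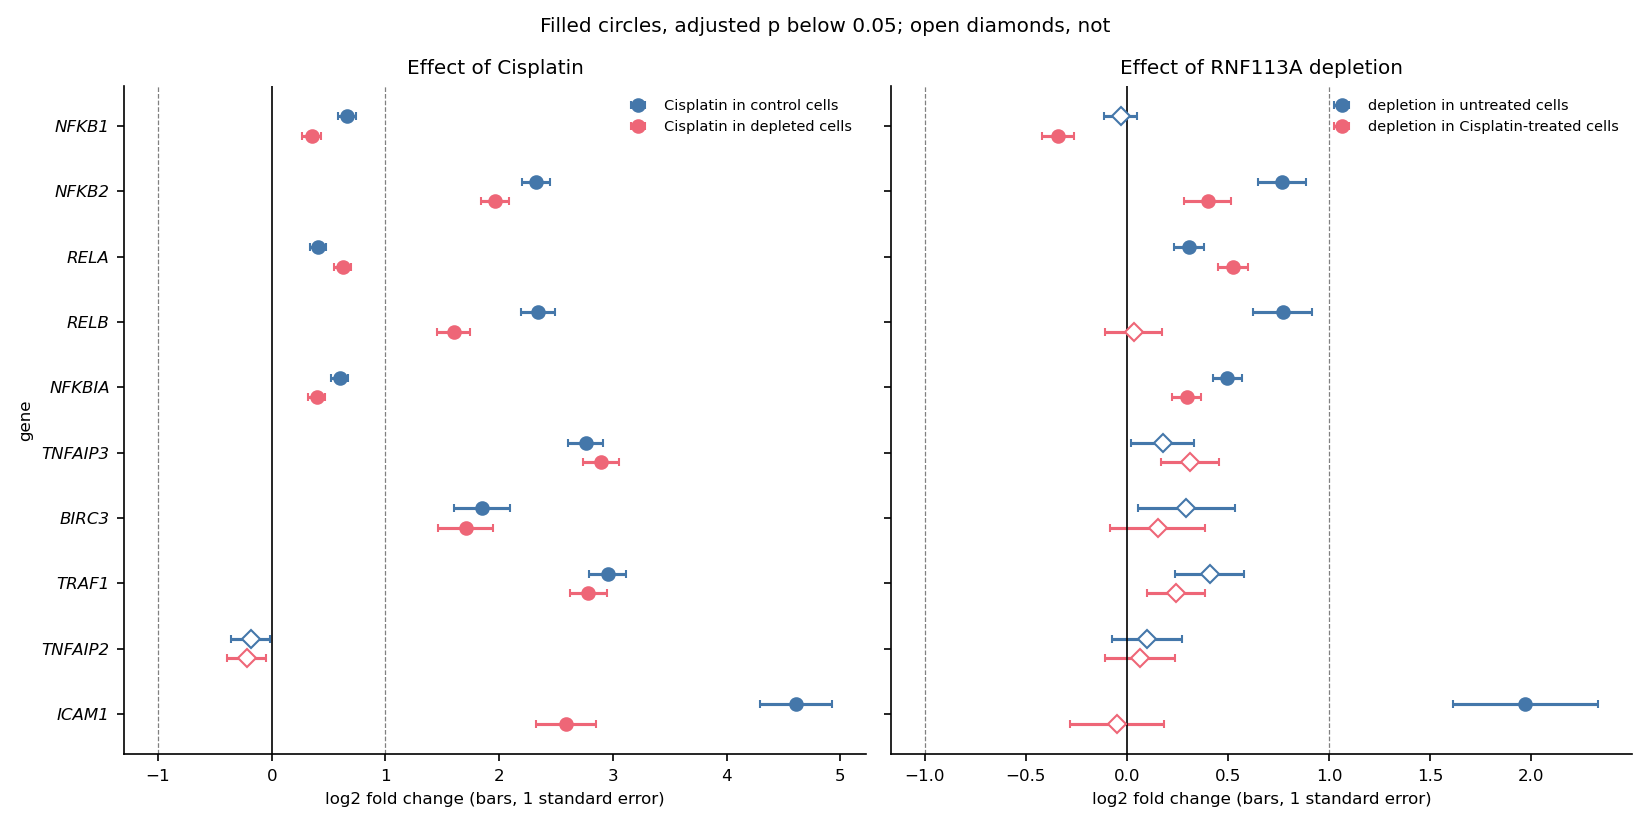
Log2 change of each transcript with Cisplatin and with RNF113A depletion, with bars of 1 standard error and open symbols where the adjusted p is 0.05 or more. The Cisplatin changes run from -0.22 for TNFAIP2 to 4.61 for ICAM1, and the depletion changes from -0.34 to 1.97.

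The untreated and Cisplatin groups did not overlap for 9 members that were higher with Cisplatin, in control cells as in depleted cells. Of all genes tested, 28.7% were separated in this way and higher in control cells and 39.9% in depleted cells. TNFAIP2 was separated and lower in depleted cells, as were 34.4% of all genes. Read counts per exon length (RPKM, reads per kilobase of union exon length, with CPM as the base) allow levels to be compared between genes. In untreated control cells TNFAIP2 had the highest level at 85.1 ± 18.6 RPKM (SD, n = 3), followed by NFKBIA at 28.2 ± 1.86, RELA at 22.8 ± 1.94 and NFKB2 at 11.7 ± 2.04. NFKB1, BIRC3 and RELB came next at 7.03 ± 0.56, 6.93 ± 2.44 and 5.33 ± 0.66 RPKM, and BIRC3 did not differ from its neighbours beyond its spread. TNFAIP3 had 1.25 ± 0.14, TRAF1 0.228 ± 0.021 and ICAM1 0.038 ± 0.025 RPKM. In depleted cells with Cisplatin NFKB2 stood at 77.5 ± 2.40 RPKM, beside TNFAIP2 at 78.2 ± 4.57, from which it did not differ beyond the spread.

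RNF113A depletion alone raised 5 of the 10 transcripts in untreated cells: NFKB2, RELA, RELB, NFKBIA and ICAM1. Of all genes, 12.8% passed and were higher in this comparison. ICAM1 was the member called at 2-fold, where 3.70% of all genes were called higher. It stood 3.92-fold above control cells (1.97 ± 0.36, adjusted p = 0.00189), on the 13 to 21 reads against 2 to 8 given above. NFKB2 was 1.70-fold higher (0.77 ± 0.12, adjusted p = 0.000663) and RELB 1.71-fold (0.77 ± 0.15, adjusted p = 0.00233). NFKBIA was 1.41-fold higher (0.50 ± 0.07, adjusted p = 0.000443) and RELA 1.24-fold (0.31 ± 0.07, adjusted p = 0.00814). TRAF1 did not overlap between the groups and had a log2 difference of 0.41 ± 0.17 (adjusted p = 0.093). With it, 6 members were separated and higher, against 21.6% of all genes. NFKB1, TNFAIP3, BIRC3 and TNFAIP2 had differences of -0.03 to 0.29, none of which passed. The median of the 10 genes was 0.36, against 0.00 over all genes.

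Under Cisplatin 0 of the 10 genes were called with depletion at 2-fold by edgeR, where 6.90% of all genes were called higher and 5.42% lower. DESeq2 also called 0. At an unadjusted p under 0.05 there were 5, and the share of all genes at that limit was not counted. NFKB2, RELA and NFKBIA were higher in depleted than in control cells by 0.40 ± 0.12, 0.52 ± 0.07 and 0.30 ± 0.07 on the log2 scale (adjusted p = 0.0164, 0.000197 and 0.00638). Of all genes, 21.1% passed and were higher. NFKB1 fell by 0.34 ± 0.08 relative to control cells (adjusted p = 0.00548), where 21.8% of all genes passed and were lower. The groups of these genes did not overlap, as for 28.9% of all genes that were higher and 28.8% that were lower. RELB and ICAM1, which were higher in untreated depleted cells, differed by 0.03 ± 0.14 and -0.05 ± 0.23 under Cisplatin (adjusted p = 0.86 and 0.88). The NFKB2 difference had an adjusted p above 0.05 without control Cisplatin replicate 1 or 3 or without depleted Cisplatin replicate 1 or 2 (0.31 to 0.34), and that of NFKBIA without depleted Cisplatin replicate 2 (0.21). TNFAIP3 differed by 0.31 ± 0.14 (adjusted p = 0.096). Without both control libraries numbered 2 it differed by 0.51 (adjusted p = 0.000393).

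As an additive term over both treatments, depletion gave 0 members called at 2-fold by edgeR or DESeq2. By edgeR, 5.47% of all genes were called higher and 5.52% lower. At an unadjusted p under 0.05 there were 7 members, and the share of all genes at that limit was not counted. On the adjusted p alone, 5 were higher, against 23.5% of all genes, and NFKB1 was lower, against 24.0%. NFKB2 (0.58 ± 0.10), RELA (0.42 ± 0.06) and NFKBIA (0.40 ± 0.06) passed in all fits that left out 1 library. RELB (0.39 ± 0.14, adjusted p = 0.0367) passed only in those without control Cisplatin replicate 2 or depleted Cisplatin replicate 3, and otherwise stood at 0.31 to 0.42. TRAF1 (0.31 ± 0.11, adjusted p = 0.0353) passed only without replicate 3 of any group, and otherwise stood at 0.26 to 0.31. NFKB1 (-0.19 ± 0.07, adjusted p = 0.0491) passed only without control untreated replicate 2 or depleted untreated replicate 1 or 3, and otherwise stood between -0.21 and -0.15. With the replicate number as a block NFKB1 and TRAF1 did not pass (adjusted p = 0.0659 and 0.053), and TRAF1 also did not by DESeq2 (0.0553).

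The interaction term asks whether the Cisplatin change differed between the backgrounds. It was below 0 for 8 of the 10 genes, with a median of -0.19, compared with 0.001 over all genes. Among the members it was called only for ICAM1, where 0.508% of all genes were called lower. For BIRC3, TRAF1 and TNFAIP2 it lay within 1 SE of 0 (-0.143 ± 0.335, -0.168 ± 0.222 and -0.035 ± 0.244). The ICAM1 term was -2.02 ± 0.43 (adjusted p = 0.0251), so that the rise was smaller in depleted cells, where the untreated level was higher. Leaving out 1 library at a time gave -2.64 to -1.64. The adjusted p, 0.0207 to 0.0762 over these fits, was above 0.05 without control untreated replicate 1, depleted untreated replicate 1 or 2, or depleted Cisplatin replicate 1 or 3. Without both control libraries numbered 2 the term was -1.67 (adjusted p = 0.0136). RELB had a term of -0.74 ± 0.20, which did not pass by edgeR (adjusted p = 0.061), passed by DESeq2 (-0.77, adjusted p = 0.0104) and was -0.51 without both control libraries numbered 2 (adjusted p = 0.023). For NFKB1 and NFKB2 the terms were -0.31 ± 0.12 and -0.37 ± 0.17 (adjusted p = 0.14 and 0.23).

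Reads inside a gene but outside its exons come largely from introns of unspliced RNA and were counted apart from the exonic reads. The intronic share was the percentage of a gene's reads in its span that fell outside exons, tested on 11021 genes as the log2 change of the ratio of intronic to exonic reads. All members but ICAM1, with at most 10 intronic reads in a library, had enough to be tested. In control cells Cisplatin gave 0 of 9 members with a higher share (0 also at an unadjusted p under 0.05), against 18.0% of all genes. Their median change was 0.05, and that over all genes was 0.29. In depleted cells Cisplatin gave 5 of 9, namely NFKB1, RELA, RELB, NFKBIA and BIRC3, against 66.8% of all genes. Depletion raised the share of 6 of 9 in untreated cells, against 29.2% of all genes, and of 9 of 9 in Cisplatin-treated cells, against 84.0%. The median changes with depletion were 0.91 and 1.18, where those over all genes were 0.47 and 0.97. The share over all genes together was 4.17% to 4.63% in the untreated control libraries and 9.5% to 9.84% in the depleted libraries with Cisplatin.

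RELB had the highest intronic share of the tested members in depleted cells with Cisplatin. Its share was 7.06%, 5.70% and 7.96% in untreated control cells, 6.38%, 4.65% and 9.14% after Cisplatin, 11.5%, 12.1% and 10.6% in untreated depleted cells, and 17.6%, 17.6% and 19.5% in depleted cells with Cisplatin. The depleted groups lay above both control groups without overlap, and the ratio was 3.18-fold higher with depletion under Cisplatin (log2 1.67 ± 0.22, adjusted p = 6.14e-06). NFKB1, whose spliced transcript was lower in depleted cells with Cisplatin, had shares of 3.42%, 1.99% and 5.06% in control cells with Cisplatin and of 8.10%, 7.83% and 10.4% in depleted ones. The ratio was 2.73-fold higher (1.45 ± 0.26, adjusted p = 6.70e-05). For NFKBIA the shares were 3.53%, 2.08% and 5.25% against 7.86%, 7.72% and 8.45%, and the ratio was 2.39-fold higher (1.26 ± 0.24, adjusted p = 0.000147). In the other members it rose by 0.97 to 1.21 on the log2 scale. In untreated cells the ratio was higher with depletion for NFKB1 (1.33 ± 0.28), NFKBIA (0.98 ± 0.26), RELA (0.91 ± 0.23), RELB (0.79 ± 0.26), NFKB2 (0.77 ± 0.20) and TNFAIP2 (0.62 ± 0.19), with adjusted p from 0.00695 to 0.0325. TNFAIP3 and TRAF1 had changes of 1.07 ± 0.42 and 1.44 ± 0.58, on 27 intronic reads or fewer in each untreated library, and did not pass (adjusted p = 0.057 and 0.063).

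**Figure D3:**
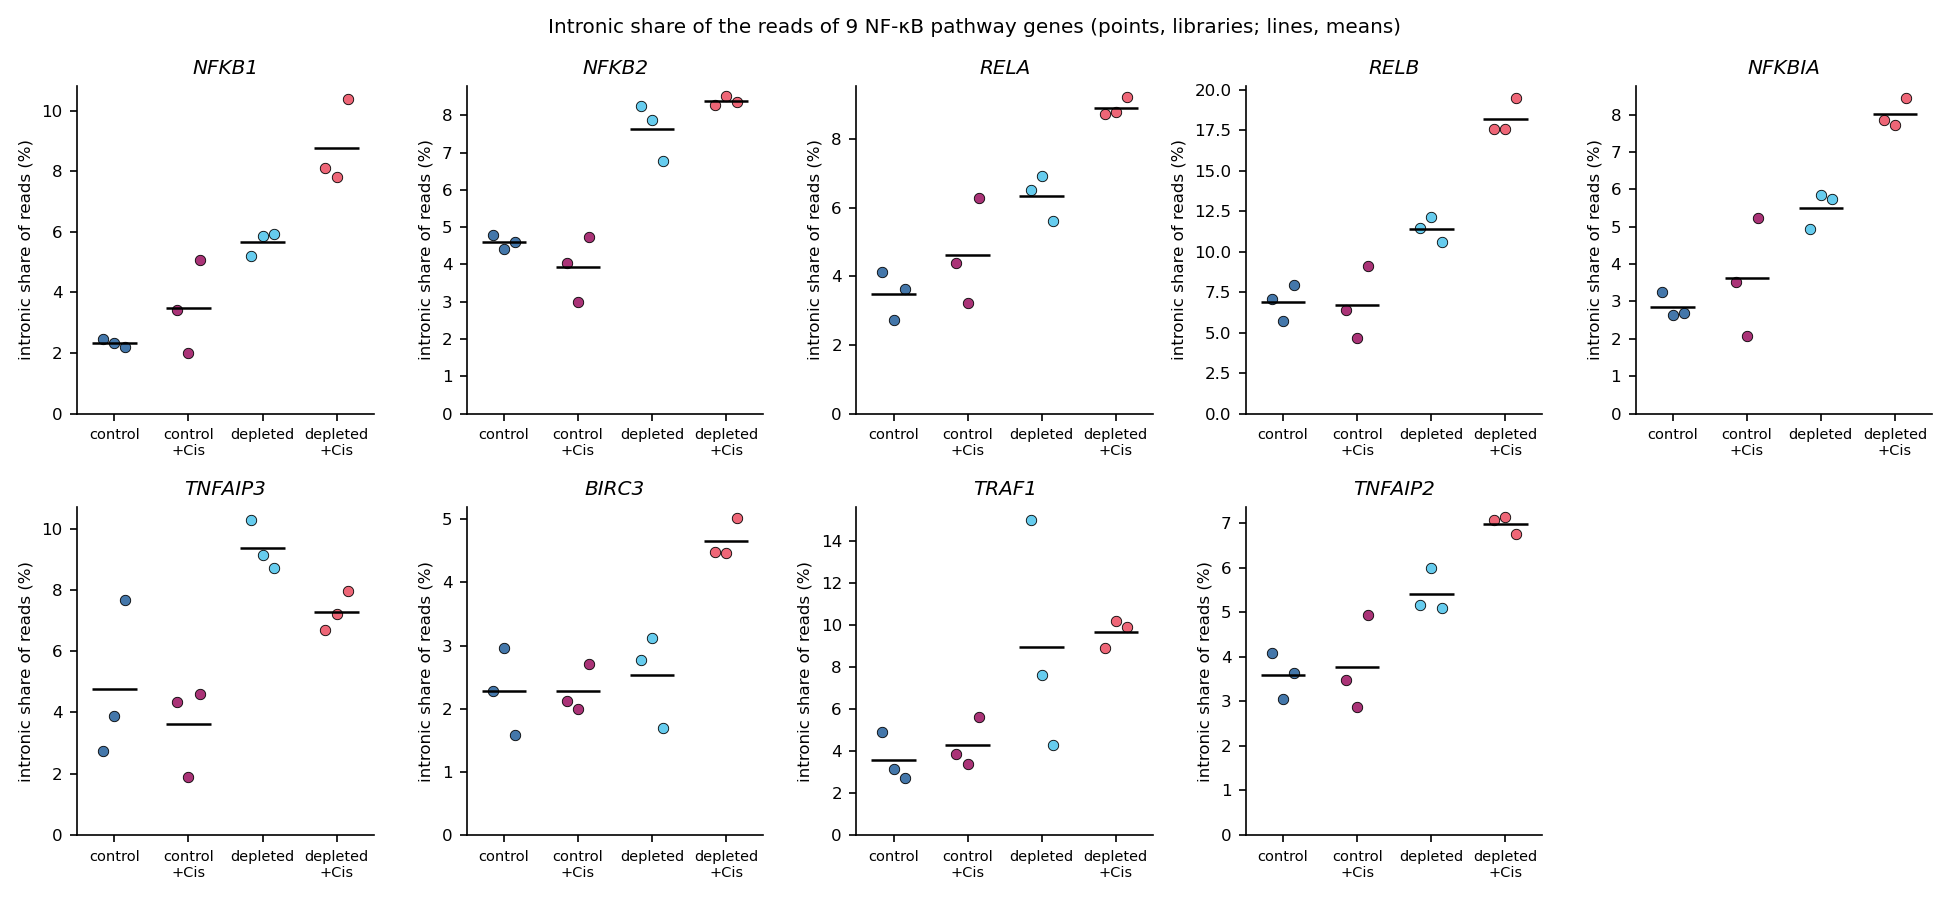
Intronic share (percent of the reads in a gene's span) of the 9 members tested, by library and group. In depleted cells with Cisplatin every member has its highest group mean except TNFAIP3, for which it is that of untreated depleted cells (9.37%, compared with 7.29%).

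Several intronic results of depletion in untreated cells and of Cisplatin in depleted cells did not pass in every fit that left out 1 library. In those fits, which hold fewer libraries, the changes kept their direction. For depletion under Cisplatin, all 9 members passed in every fit that left out 1 library. Without control untreated replicate 2 the changes of NFKB2, RELA, RELB, NFKBIA and TNFAIP2 were 0.74, 0.75, 0.66, 0.93 and 0.51 and no longer passed, and without depleted untreated replicate 2 they were 0.75, 0.84, 0.73, 0.93 and 0.54 and no longer passed. NFKB2, RELB and TNFAIP2 were also lost without depleted untreated replicate 1 (0.71, 0.79 and 0.66), RELB without control untreated replicate 1 (0.81) and TNFAIP2 without control untreated replicate 3 (0.64). With Cisplatin in depleted cells, NFKBIA was lost without any 1 of the 6 libraries (0.50 to 0.63), RELA without any but untreated replicate 2 (0.44 to 0.55) and NFKB1 without untreated replicate 1 or 3 or Cisplatin replicate 3 (0.53 to 0.70). Without both control libraries numbered 2, NFKB1 and NFKBIA also passed with Cisplatin in control cells (0.90, adjusted p = 0.00572, and 0.58, adjusted p = 0.0438). Without control Cisplatin replicate 2 alone, 3 of 9 members passed there. For TNFAIP3 in untreated cells the adjusted p was 0.0425 without them and 0.0393 with the replicate number as a block.

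The deposited splicing table listed 9 introns in 5 of the members as retained in some transcripts, and 8 had at least 10 reads in every library of a comparison. The value is the percentage of transcripts that keep the intron, computed from the authors' counts of reads that include or skip it, each over the effective length the authors give. The introns that changed are shown because they are short and lie between coding exons of the canonical transcript. They are intron 4 of 5 of NFKBIA (chr14:35871870-35871976, minus strand, 107 bases), intron 2 of 10 of RELA (chr11:65429560-65429649, minus strand, 90 bases), intron 10 of 11 of RELB (chr19:45537571-45537708, plus strand, 138 bases) and intron 4 of 11 of TNFAIP2 (chr14:103596192-103596338, plus strand, 147 bases), all in GRCh37. The splice site dinucleotides are in capitals.
NFKBIA intron: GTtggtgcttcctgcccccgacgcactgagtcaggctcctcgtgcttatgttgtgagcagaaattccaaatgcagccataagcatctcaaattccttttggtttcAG
RELA intron: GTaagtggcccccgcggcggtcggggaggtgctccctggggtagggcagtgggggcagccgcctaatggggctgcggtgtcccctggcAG
RELB intron: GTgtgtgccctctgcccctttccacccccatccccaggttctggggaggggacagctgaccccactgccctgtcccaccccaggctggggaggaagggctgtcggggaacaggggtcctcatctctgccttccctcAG
TNFAIP2 intron: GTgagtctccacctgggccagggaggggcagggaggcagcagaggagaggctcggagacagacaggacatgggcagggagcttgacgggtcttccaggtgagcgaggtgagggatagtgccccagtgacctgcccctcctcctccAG
All 4 were shorter than the median of 262 bases over the 3734 introns with enough reads. The RELA, RELB and TNFAIP2 introns held 74.4%, 67.4% and 66% G and C, above the median of 56.6%, and the NFKBIA intron held 49.5%. Like 98.7% of those introns, they begin with GT and end with AG.

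With RNF113A depletion more of the NFKBIA and RELA transcripts kept these introns in untreated cells. The NFKBIA intron was kept in 3.97%, 3.42% and 3.30% of transcripts in the 3 control libraries and in 4.94%, 8.71% and 8.06% in the 3 depleted ones. The groups did not overlap, and the ratio of retained to spliced reads rose 2.07-fold (log2 1.05 ± 0.32, adjusted p = 0.0114). The RELA intron was kept in 1.23%, 0% and 0.378% of control transcripts and in 2.86%, 3.01% and 1.03% of depleted ones. These values rest on 4 and 24 intron reads in all. The 0 rests on 103 reads and allows up to 2.91% of those reads, a share not corrected for length as the levels are. On the corrected scale, 3 intron reads beside 107 skipping reads gave the 1.23%. The RELA groups overlapped, and the ratio rose 4.13-fold (2.05 ± 0.76, adjusted p = 0.0431). Of all introns tested, 17.1% were called higher in this comparison. The RELB intron was kept in 1.87%, 3.67% and 5.92% of control and in 12.3%, 10.1% and 8.06% of depleted transcripts, a change of 1.42 ± 0.64 that did not pass (adjusted p = 0.104).

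Under Cisplatin 3 member introns were called higher with depletion, as were 25.4% of all introns tested. RELA went from 0.267%, 0.264% and 1.18% to 0.957%, 3.47% and 3.73%, with groups that overlapped and a log2 change of 2.12 ± 0.67 (adjusted p = 0.0127). RELB went from 1.55%, 2.40% and 2.65% to 3.93%, 6.07% and 6.09% without overlap (1.28 ± 0.47, adjusted p = 0.0329). TNFAIP2 went from 0.47%, 0.421% and 0.86% to 1.60%, 1.44% and 1.29%, also without overlap (1.27 ± 0.44, adjusted p = 0.0223). The NFKBIA intron went from 3.85%, 3.24% and 5.02% to 7.02%, 8.16% and 6.28% and did not pass (0.87 ± 0.36, adjusted p = 0.057), although it did with a minimum of 50 reads per library (adjusted p = 0.0462). With Cisplatin 0 member introns were called by edgeR in control cells, where 0.203% of all introns were called higher, and 0 in depleted cells, where 13.3% were. The shares of all introns called lower were 0.29% and 2.35%. At an unadjusted p under 0.05 there was 1 in each. In control cells it was the BIRC3 entry described below, whose level (98.5% to 100%) was not taken as retention. In depleted cells it was the RELB intron, which fell from 10.1% to 5.36% (log2 -1.03 ± 0.42, adjusted p = 0.0794). Each of the 5 calls with depletion was lost without some 1 library, and the fits that left out 1 gave 2 to 6 calls in all. Among them were calls gained for the NFKBIA intron under Cisplatin (adjusted p = 0.00898) and the TNFAIP2 intron in untreated cells (0.0314), each without 1 control library. The libraries are not named in the splicing table, so which of them are numbered 2 is not known. Of the other listed introns, RELA intron 3 of 10 was kept in 0.370% ± 0.016 to 1.68% ± 0.69 (SD, n = 3) of transcripts by group mean. For 1 each in RELA, NFKBIA and BIRC3, not an intron of the canonical transcript, the computed level was 92.9% or more by group mean. The NFKBIA one (chr14:35871741-35871976) contains the 107-base intron, which few transcripts kept. Its level therefore includes reads on exon sequence and does not measure retention, and the levels of the other 2 were not taken as retention either. A further RELA intron had too few reads.

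**Figure D4:**
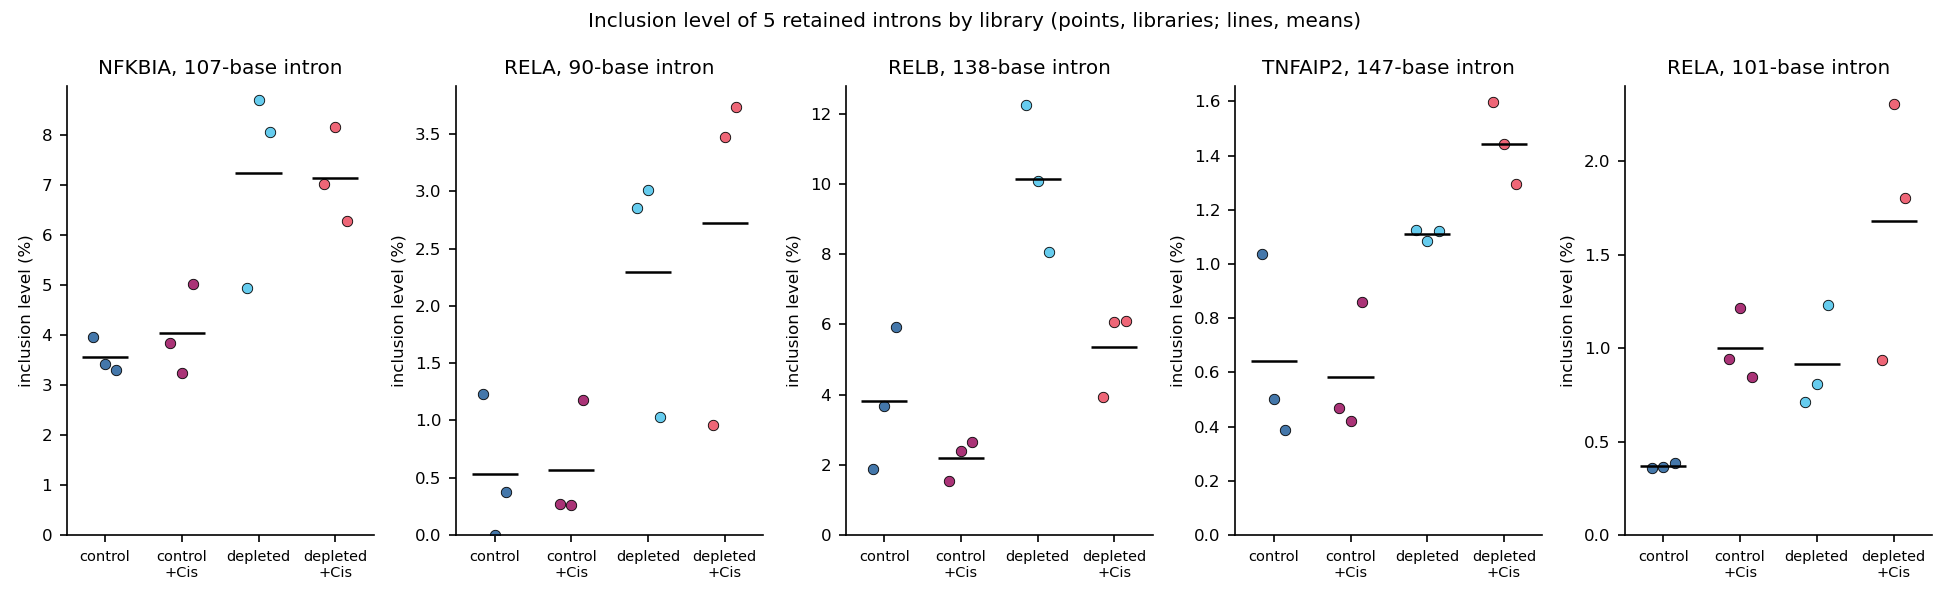
Percentage of transcripts that keep the intron in NFKBIA, RELA, RELB and TNFAIP2, and intron 3 of 10 of RELA (101 bases), by library (points) and group (lines, means). For RELB the untreated depleted libraries reach 12.3%, above the highest control library at 5.92%.

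A wider list of 79 NF-κB genes that are not members, of which 76 could be tested, gives the setting. Of these, 19 were called higher and 2 lower with Cisplatin in control cells, and 21 and 2 in depleted cells. Over all genes tested the shares called higher were 9.16% and 11.6%, and the shares called lower were 10.6% and 11.5%. Their median log2 changes were 0.42 and 0.47, beside medians over all genes of -0.01 and 0.06. By group of genes, 7 of 16 receptors and ligands and 7 of 18 other targets were called higher in control cells. So were 1 of 12 kinases and 1 of 17 adaptors and ubiquitin ligases, and these groups were not tested against each other. Of the 7 receptors and ligands, IL1A, TNF and TNFRSF1B averaged only 0.141, 0.182 and 0.358 CPM, and the others 1.30 to 7.59. Of the 7 other targets, MMP9 averaged 0.972 CPM and the others 1.65 to 93.1. Of the called genes that averaged 1 CPM or more, the largest rises in control cells were those of BCL2A1, an anti-apoptotic BCL2 relative, by 2.94 ± 0.24, TLR3, a receptor for double-stranded RNA, by 2.93 ± 0.16, and the transcription factor IRF1 by 2.29 ± 0.14. COMMD1, which promotes the turnover of RELA, fell by 1.94 ± 0.22 on the log2 scale in control cells and fell by 2.51 ± 0.23 in depleted cells. The interleukin-1 receptor IL1R1 fell by 1.49 ± 0.15 and 1.19 ± 0.15. In depleted cells BCL2A1 rose by 4.24 ± 0.31, the TNF receptor family member TNFRSF9 by 2.27 ± 0.38 and IRF1 by 2.20 ± 0.14. The untreated BCL2A1 levels were near the limit of detection, at 0.451 to 0.662 CPM in control and 0.0923 to 0.132 CPM in depleted cells.

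With depletion 6 of the 76 genes were called higher and 2 lower without Cisplatin, and 8 and 3 with it, with medians of 0.07 and 0.18. Of all genes tested, 3.70% were called higher and 4.96% lower without Cisplatin, and 6.90% and 5.42% with it. Of the 6 called higher without Cisplatin, TNFRSF1B and LTB averaged 0.358 and 0.387 CPM. Of the called genes that averaged 1 CPM or more, the receptor subunit IL1RAP was in untreated cells higher by 1.84 ± 0.13. The plasminogen activator PLAU was higher by 1.68 ± 0.24 and the iron-binding protein LCN2 by 1.45 ± 0.16. BCL2A1 fell by 2.23 ± 0.34, at the low untreated levels given above, and IL1R1 by 1.57 ± 0.15. Under Cisplatin LCN2 was higher by 1.81 ± 0.17, the receptor TLR4 by 1.58 ± 0.21 and the nuclear IκB protein NFKBIZ by 1.52 ± 0.18. IL1R1 fell by 1.27 ± 0.15, TLR3 by 1.13 ± 0.15 and the prostaglandin synthase PTGS2 by 1.07 ± 0.33 relative to control cells. The interaction term was called lower for IL1RAP (-1.18 ± 0.18, adjusted p = 0.00979) and TLR3 (-1.21 ± 0.22, adjusted p = 0.0159) and for no other of the 76 genes.

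**Figure D5:**
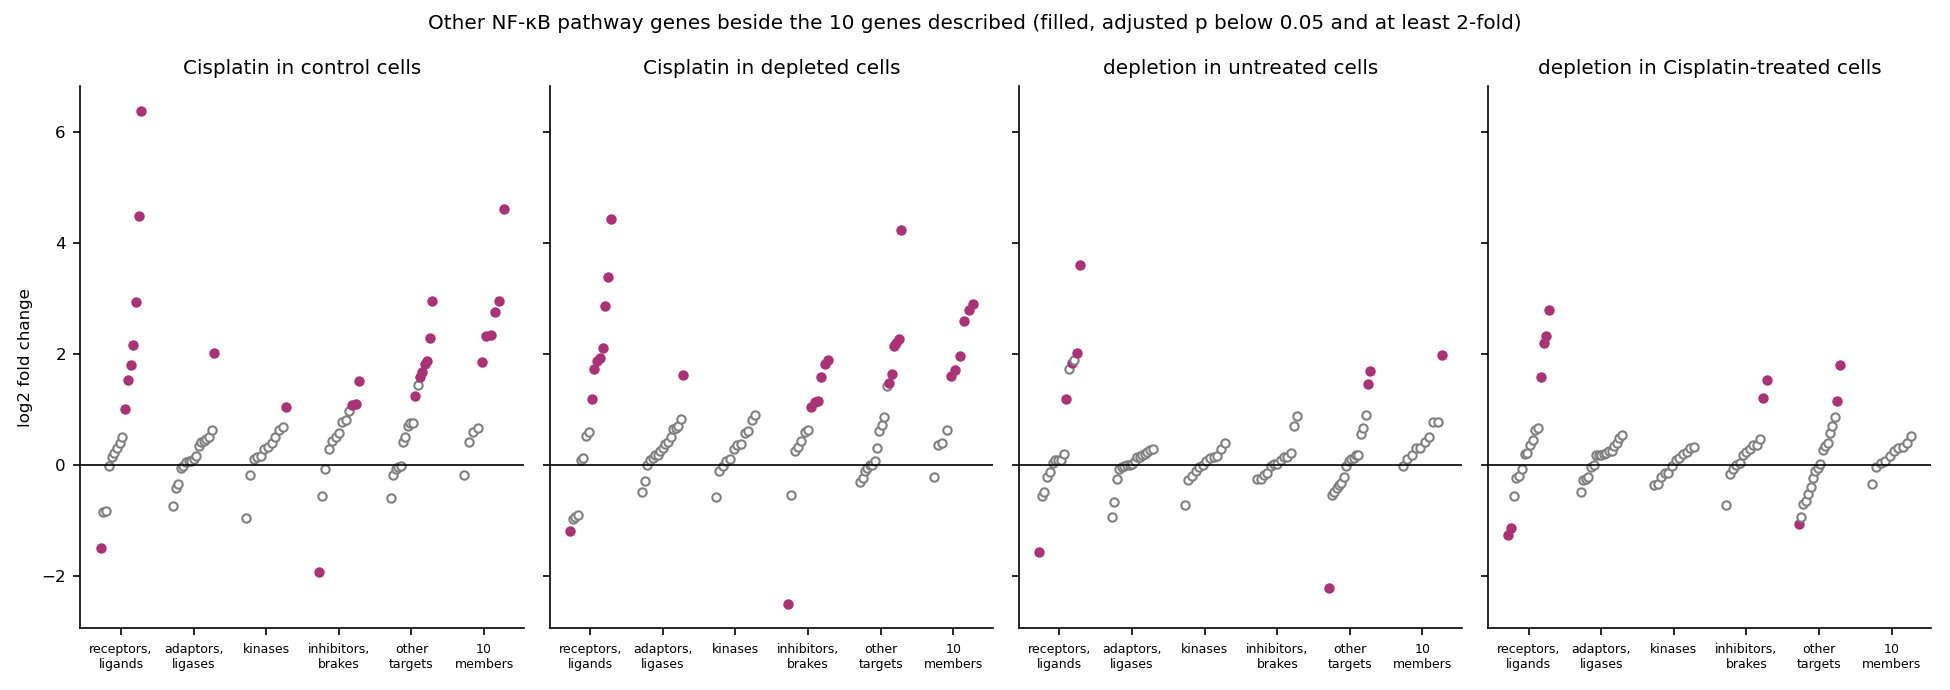
Log2 change of the 76 tested NF-κB genes outside the member list, by functional group and comparison, beside the 10 members, with called genes filled. In control cells with Cisplatin 19 of the 76 are called higher and 2 lower.

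For the members whose group means spanned at least 1 on the log2 scale, the genes with the most similar pattern were sought among 9771 genes, by the root-mean-square difference of centred log2 levels over the 12 libraries. The nearest to NFKB2 were MAMDC4 (0.19) and PLD6 (0.20), and to RELB RNF19B (0.16) and TRAF4 (0.24). RNF19B had 24.1 ± 0.53, 122 ± 11.6, 35.2 ± 0.78 and 114 ± 6.18 CPM in control, control with Cisplatin, depleted and depleted with Cisplatin. TNFAIP3 was nearest to PMAIP1 (0.24) and SESN1 (0.26), BIRC3 to ZMAT3 and ALDH3A1 (both 0.19), and TRAF1 to FAS (0.22) and SESN1 (0.23). ICAM1, which spanned 4.24, had no gene closer than LACC1 (0.48) and PLK3 (0.50).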

How the data were processed

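RNA-seq was carried out on 12 libraries of A549 cells (3 biological replicates in each of 4 groups; TruSeq stranded mRNA, paired ends). Per the labels and the study's methods, the authors demultiplexed with bcl2fastq 2.17, discarded reads from rRNA, tRNA and mitochondria, trimmed what remained and aligned it with STAR 2.5.2b to hg19. The deposited gene counts are STAR's whole-number counts, and the column for the strand of the library kit was used. Span and exon counts that the authors made with HTSeq on Gencode v19 protein-coding genes gave intronic reads as the difference (negative in 10854 of 234576 gene and library values, then set to 0). The authors' retained intron table, made with rMATS, holds counts of reads that include or skip each intron, with effective lengths. Its p-values and those of other deposited comparison columns were not used.

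The read pairs assigned to no gene (14% to 22.6%) were left out of library sizes. Counts were normalized by TMM, and genes with low counts were removed (filterByExpr). Groups were compared with edgeR 4.0.16 (R 4.3.3) quasi-likelihood tests, with Benjamini-Hochberg adjustment over all genes or introns tested in a comparison. Every adjusted p in the text is from this test unless DESeq2 1.42.0 is named. All 12 libraries entered each expression fit, with one coefficient per group, or with an additive model for the effects over both backgrounds or treatments. Intronic and retained intron reads were tested against exonic or spliced reads with a term for each library. The scripts were tested on simulated data. Values after ± are SE for log2 changes and SD for levels. The SE was the absolute log2 change divided by the square root of the F statistic of its quasi-likelihood test.

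The 10 genes, the wider list and the tests were chosen with earlier results of these data known. Named genes were all members, the 3 largest called rises and falls of the wider list per comparison (mean level of 1 CPM or more), and the 2 nearest genes per member (10 CPM or more). Deviations from group means of same-numbered control libraries correlated (r = 0.63, 0.73 and 0.48 over 9779 genes). The same number was the best match for control replicates 1 and 2 but not 3. In depleted cells r was 0.41, -0.07 and 0.30, and the same number was the best match for replicates 1 and 3 but not 2. Across the backgrounds r was -0.20 to 0.23. Because both control libraries numbered 2 stood apart, these values cannot show whether the other numbers pair libraries. Alternatives were library size scaling, DESeq2, other filters, a replicate block, fits of 6 libraries, and leaving out each library. Leaving out both control libraries numbered 2 was chosen after seeing the data.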

Additional observations from a re-analysis of the deposited data

Results flagged for a closer look

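The Cisplatin effect on ICAM1 differed between the backgrounds, with an interaction term of -2.02 on the log2 scale (depleted minus control cells, adjusted p = 0.0251 by edgeR). The Cisplatin changes themselves were 4.61 ± 0.32 in control cells and 2.59 ± 0.27 in depleted cells, with ICAM1 higher in 3 of 3 Cisplatin libraries in each. The untreated control libraries held 2 to 8 ICAM1 reads, and the cause of the difference was not tested.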

How the results depend on the processing

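For 138 single values, 2131 alternatives were run, of which 1950 kept the direction and the side of the threshold, 92 lost the threshold, 34 gained it, 0 past the threshold reversed, and 55 changed sign with neither value past the threshold. Cisplatin gave 6 members called over both backgrounds, in control and in depleted cells in every fit run, leaving out 1 library included, except for 5 with at least 10 counts in every library and 9 without the limit on the fold. Without the limit on the fold, members called for depletion numbered 6 over both treatments, 5 in untreated and 4 in Cisplatin-treated cells, in place of 0, 1 and 0. With at least 10 counts in every library ICAM1 left the test, and 0 were called for depletion in untreated cells and 0 for the interaction. Leaving out 1 library gave 0 to 1 for the interaction. The 5 retained intron calls became 0 when mean inclusion also had to differ by 20 or by 5 percentage points, and 2 to 6 when 1 library was left out. The 20 higher intronic shares over 4 comparisons became 14 to 26 when 1 library was left out. The replicate block gave 6, 0, 6, 6, 1, 0 and 1 members called in the 7 comparisons. It changed the call of TNFAIP3's intronic share in untreated cells and, in the 6 control libraries alone, of TNFAIP2, as given above. Under it NFKB1 (-0.19) and TRAF1 (0.31) no longer passed for depletion over both treatments, and it changed no other call of a member. Scaling by library size in place of TMM moved the median of all genes from 0.03 to 0.13 for Cisplatin over both backgrounds. P-values rest on the spread between replicates, 3 per group. For expression and intronic shares that spread was estimated over all 12 libraries, not only over the groups compared. For retained introns it was estimated over the libraries of each comparison. Depth limits ICAM1 in untreated cells, TRAF1's intronic share and the RELA intron, each on a few reads. It also limits BCL2A1 of the wider list in untreated cells.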
